A study of Mus musculus with 15 samples.

Results

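The genes described here encode the secreted and membrane-bound metalloproteinases that cut the extracellular matrix, the matrix metalloproteinases (Mmp) and the ADAMTS proteases (Adamts), together with their protein inhibitors (Timp). Members were taken by name: mouse protein-coding genes whose symbol is Mmp, Adamts or Timp followed directly by a digit, matched to the Ensembl IDs of the deposited tables. This gave 45 of 49315 gene IDs, of which 22 are Mmp, 19 are Adamts and 4 are Timp genes. RNA came from primary myoblasts, the dividing precursor cells of skeletal muscle, of wild-type C57BL/6J mice. Cells of 5 primary lines, numbered 1, 2, 3, 4 and 7, had received lipid-delivered small interfering RNA and were then differentiated for 1 day. Each line was given a control RNA (siCtrl), an RNA against Lmod1 (siLmod1) or an RNA against Sirt1 (siSirt1), so that each of the 3 groups held 5 libraries. Lmod1 encodes leiomodin 1, which nucleates actin filaments, and Sirt1 encodes a deacetylase that uses NAD, sirtuin 1. Each knockdown was compared with siCtrl, and the knockdowns with each other. There was 1 library of each line in each group. In tests of the groups alone, p-values measure the spread between these 5 lines. Where the line enters the model as a block, they measure how much the difference between groups varies from line to line.

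Matrix metalloproteinases are zinc proteases made as inactive precursors, which other proteases such as plasmin or furin activate outside the cell or on its way to the surface. They include collagenases, gelatinases, stromelysins and membrane-type enzymes, and in muscle they open the matrix around satellite cells, release growth factors and accompany myoblast migration and fusion. ADAMTS proteases carry thrombospondin repeats, and their best known substrates are the large proteoglycans such as versican and aggrecan and the ends of procollagen molecules. The 4 TIMP proteins bind the active sites of these enzymes, and TIMP2 also takes part in the activation of pro-MMP2 by MMP14 at the cell surface.

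Libraries held 21004908 to 33601761 counted reads. A count of 3, taken as the floor, was worth 0.0893 to 0.143 CPM (counts scaled to the library total), a limit that covers counting error only. The targeted transcripts fell with their own small interfering RNA: Lmod1 stood at 5.77 to 41 CPM in siCtrl and at 1.39 to 5.28 CPM in siLmod1, and Sirt1 at 16.5 to 34.2 CPM in siCtrl and 3.37 to 11.4 CPM in siSirt1. An exact two-sided permutation test of 5 against 5 libraries gave p = 0.00794 for each, the smallest p that this unpaired test allows. It did not use the pairing by line. Every library held myogenic transcripts, with 466 to 2916 CPM of Myog and 1640 to 3801 CPM of Des. Markers of other cell types were mixed. Ptprc, which marks leukocytes, was at no more than 0.0628 CPM and the fibroblast gene Lum at no more than 0.0298 CPM, but Col3a1, also of the fibroblast list, was at 84.4 to 785 CPM. The pericyte and smooth muscle list summed to 58.9 to 291 CPM and the tendon list to 29.4 to 136 CPM. The endothelial gene Tek was at 44.5 to 96.2 CPM in line 4. Vwf, also endothelial, was at 0.63 to 1.32 CPM in line 4 and at 4.675 to 14.7 CPM elsewhere. In bulk RNA, fewer cells of a type and less RNA per cell cannot be told apart.

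Of the 45 genes, 17 were expressed, here meaning a median of at least 1 TPM (the authors' level scaled by gene length and library) over the 15 libraries. These were 10 Adamts, 5 Mmp and 2 Timp genes. Together with 17 others, 34 genes in all held at least 3 reads in at least 5 libraries, and 4 genes, Mmp1b, Mmp7, Mmp20 and Mmp27, held no read in any library. Inhibitor transcripts were the most abundant of the 3 families. Timp genes summed to 872 ± 272 TPM in siCtrl, 662 ± 239 TPM in siLmod1 and 806 ± 360 TPM in siSirt1 (SD, n = 5). Mmp genes summed to 230 ± 144, 223 ± 197 and 213 ± 118 TPM, and Adamts genes to 184 ± 64.7, 147 ± 53.6 and 201 ± 71.8 TPM (SD, n = 5). The Mmp sum was 407 to 574 TPM in line 4 and 120 to 236 TPM in the other 4 lines. In siCtrl, Timp transcripts made up 68 ± 5.05% of the TPM of the 45 genes.

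**Figure D1:**
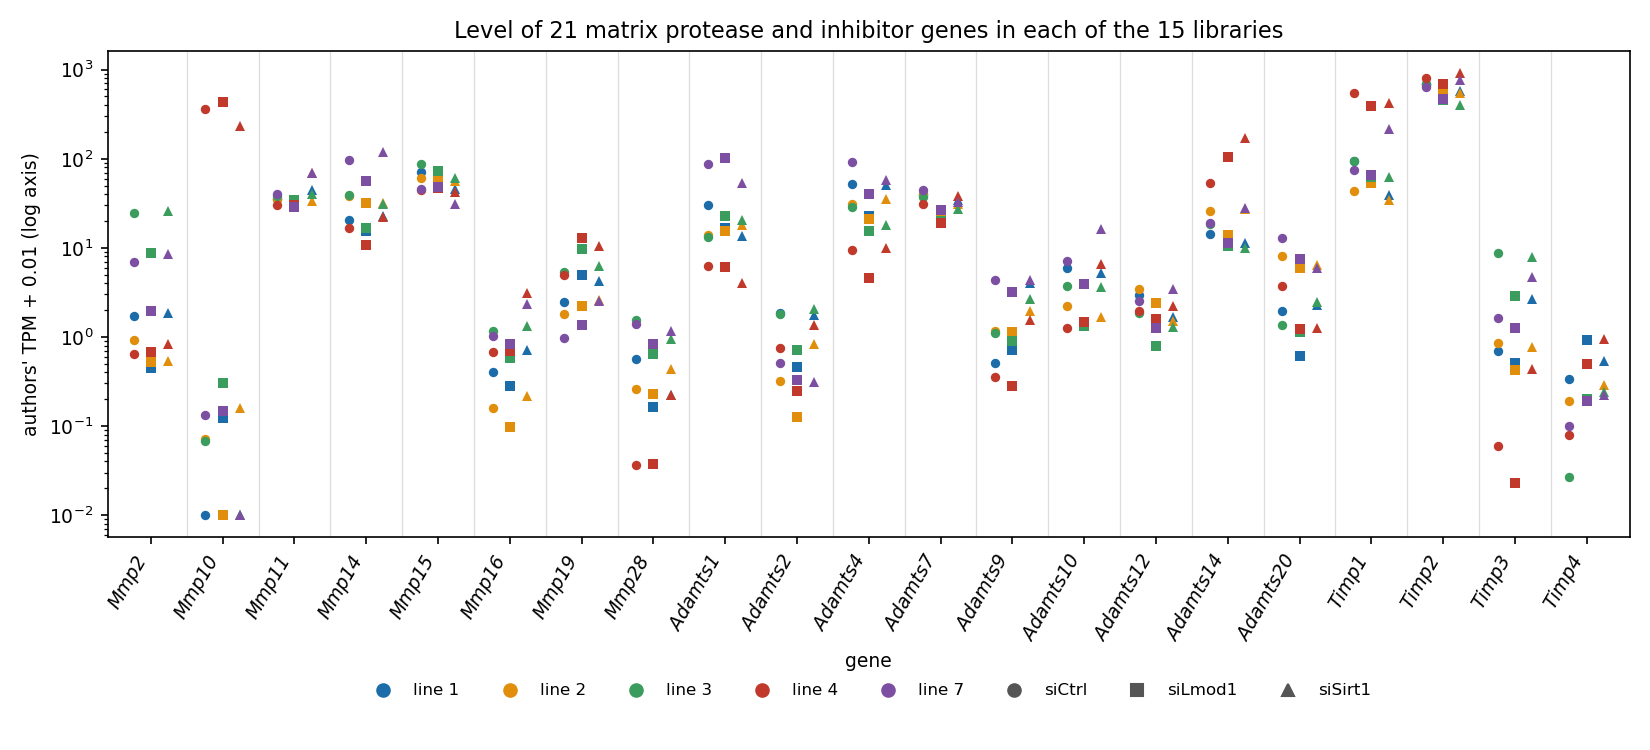
Each point is 1 of the 15 libraries, with the authors' TPM plus 0.01 on a log axis for the 21 genes given library by library; colour shows the primary line and shape the siRNA group. Timp2 was above 400 TPM in every library, and Mmp10 reached 235 to 435 TPM in the 3 libraries of line 4 but at most 0.295 TPM in the other 12.

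Timp2 (mm10, chromosome 11, 118301069 to 118355740), the inhibitor that also takes part in activating pro-MMP2, had the highest level of the set in every library. It stood at 696, 665, 689, 803 and 640.0 TPM in siCtrl lines 1, 2, 3, 4 and 7. Its partner in that reaction, the membrane-type protease gene Mmp14, stood at 20.7, 38.3, 39.2, 16.9 and 97.1 TPM in the same libraries, with line 7 apart from the rest. Mmp15, a second membrane-type protease, had a narrower spread, with 70.2, 60.1, 87.6, 44.8 and 46.2 TPM. Mmp11, stromelysin 3, varied little, at 35.8, 35.3, 38.4, 30.5 and 40.2 TPM. Levels of Mmp2, the gelatinase, spread over a wide range, at 1.69, 0.918, 24.7, 0.626 and 6.9 TPM, with line 3 highest. The other gelatinase gene, Mmp9, held 59 reads in all libraries together, and no collagenase was expressed: Mmp13 had 77 reads, Mmp8 had 51 and Mmp1b had none.

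Among the ADAMTS genes, those for proteoglycan-cleaving enzymes were the most numerous at expressed levels, with 5 of 7 at a median of 1 TPM or more. Adamts4 stood at 51.8, 31.3, 28.5, 9.41 and 91.6 TPM in siCtrl lines 1, 2, 3, 4 and 7, and Adamts1 at 30.6, 14, 13.2, 6.18 and 86.2 TPM. Both were highest in line 7 and lowest in line 4. Adamts4 lies on chromosome 1 (mm10, 171250421 to 171260637). Adamts7, whose product is known to cut cartilage oligomeric matrix protein, stood at 40.2, 39.2, 37.5, 30.8 and 44.7 TPM, so that its levels differed little between lines. Of the 3 procollagen N-proteinase genes, which trim the amino end of procollagens, only Adamts14 was expressed, at 14.4, 25.6, 18.6, 53.6 and 18.8 TPM. Adamts2 stayed between 0.309 and 1.83 TPM in siCtrl, and Adamts3 reached 3.24 TPM in the siSirt1 library of line 4 and at most 0.451 TPM elsewhere.

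The primary line accounted for most of the spread of these genes. Over the 26 members, and 13892 genes in all, with at least 1 CPM in at least 3 of the 15 libraries, the sum of squares of log2 CPM was divided between line, siRNA group and remainder, a description chosen after the data had been seen. The line took a median of 79.5% over the members and of 60.2% over all genes. Without the 3 members that passed this filter only through line 4, the medians were 77.5% over 23 members and 59.8% over 13602 genes filtered alike. The line took over 50% for 21 of 26 members (80.8%), against 63.5% of all genes. The group took a median of 12.2% over the members and of 16.3% over all genes, and exceeded 50% for Adamts7 (78%), Mmp17 (57.7%) and Mmp11 (52.7%).

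**Figure D2:**
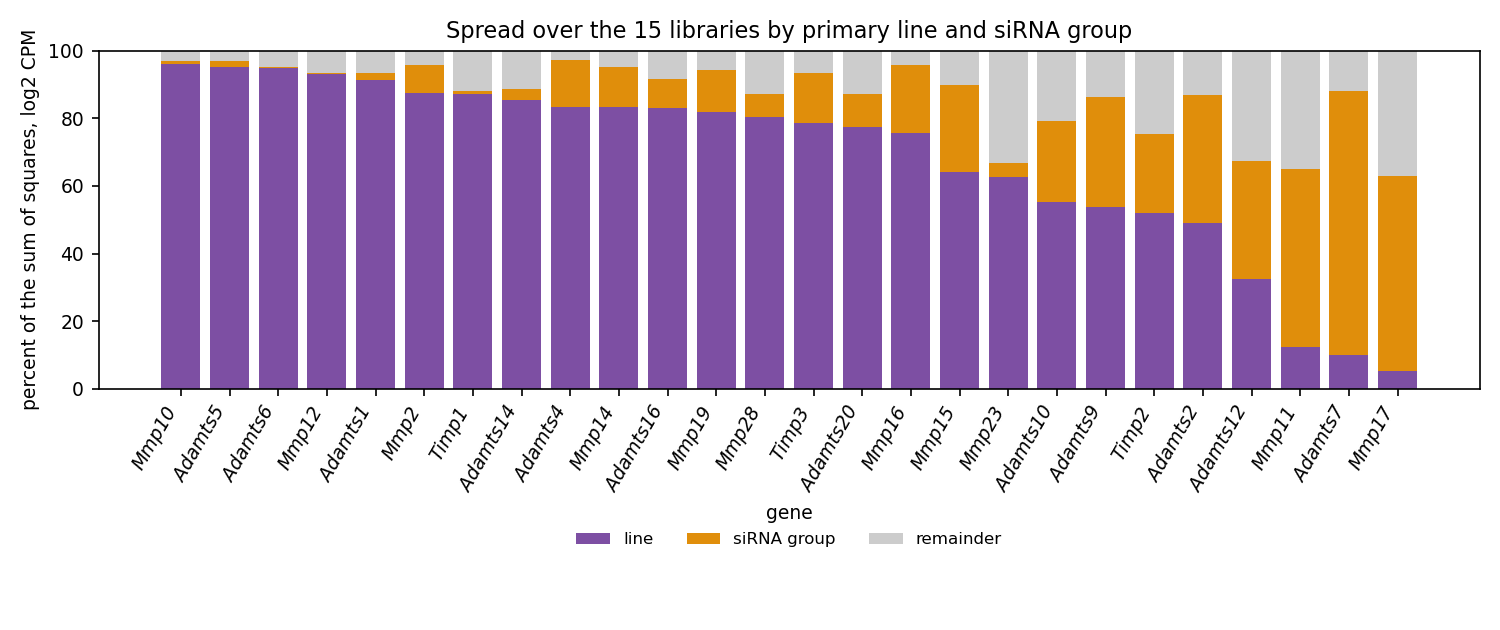
Stacked bars give, for 26 genes, the percent of the sum of squares of log2 CPM over 15 libraries that fell to the primary line, the siRNA group and the remainder. The line took 96.1% for Mmp10 at the left, and the group took 78% for Adamts7.

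Line 4 stood apart from the other lines. In all 3 of its libraries, 5 of 26 members (19.2%) lay over 2-fold above each of the other 12 libraries, where 2.62% of all 13892 genes did: Adamts6, Adamts14, Adamts16, Mmp10 and Mmp12. Of these, Adamts16, Mmp10 and Mmp12 passed the filter on low values only through line 4 and had to differ, so the 5 are a description. With a filter on the other 4 lines alone, chosen after the data had been seen, 2 of 23 members (8.7%), Adamts6 and Adamts14, and 1.65% of 13602 genes lay above. One member, Adamts5, lay over 2-fold below all others (3.85%, against 1.23% of all genes). For lines 1, 2, 3 and 7 no member lay apart in this way, where 0.0792%, 0.13%, 0.367% and 0.0576% of all genes lay above and 0.0%, 0.194%, 0.0216% and 0.216% lay below. The criterion was chosen after the data had been seen, and the named genes beyond Mmp10 and Adamts14 are singled out by it.

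Mmp10, which encodes stromelysin 2, held 6216, 7034 and 3466 reads in the siCtrl, siLmod1 and siSirt1 libraries of line 4 and 0 to 5 reads in every other library. These were 363, 435 and 235 TPM, while Timp1 had 394 to 549.9 TPM in the same 3 libraries. Mmp12, the macrophage elastase, held 1302, 2370 and 1307 reads in line 4 and 0 to 12 in the other 12 libraries. Both genes were all but silent in the other 4 lines, and the filter left both out of the tests between groups. Mmp13, collagenase 3, had its highest count, 37 reads, in the siSirt1 library of line 4.

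Both genes lie in the cluster of 9 Mmp genes on chromosome 9 (mm10, 7272514 to 7699585), which arose by gene duplication. It holds collagenase, stromelysin and matrilysin genes among others, but not Mmp11, which lies on chromosome 10. Of its 9 members, 4 held no read in any library. Promoters of such genes are known for binding sites of AP-1, the dimer of Jun and Fos family proteins. In the RefSeq promoter table (GRCm38.p6, 250 bases before to 50 after each start), 31 of the 45 genes were found. The AP-1 word TGANTCA, read on both strands, was in 7.79% of all 32544 promoters and in 7 of the 34 promoters of these members (20.6%), 1 in each of 7 genes. All 7 are in the chromosome 9 cluster, where 7 of 9 members held the word, against 0 of 22 members elsewhere. The ETS-type word AGGAAG, also read on both strands, was in 35.1% of all promoters and in 15 of the 34 (44.1%).

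Mmp12 has 2 promoters in the table. The one upstream, at 7344147 to 7344446, does not hold the AP-1 word, and the later one, at 7347124 to 7347423, does. The bases before a start site are shown for the line 4 genes Mmp10 and Mmp12 (its later start) and, for comparison, for Mmp13 and Mmp3 of the same cluster, with the AP-1 word in capitals. They are the plus strand, 5′ to 3′, of GRCm38.p6 chr9:7502192-7502341 (Mmp10), chr9:7347224-7347373 (Mmp12), chr9:7272364-7272513 (Mmp13) and chr9:7445672-7445821 (Mmp3).
Mmp10: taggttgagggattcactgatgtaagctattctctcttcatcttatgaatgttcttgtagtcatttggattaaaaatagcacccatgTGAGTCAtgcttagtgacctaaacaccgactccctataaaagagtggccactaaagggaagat
Mmp12: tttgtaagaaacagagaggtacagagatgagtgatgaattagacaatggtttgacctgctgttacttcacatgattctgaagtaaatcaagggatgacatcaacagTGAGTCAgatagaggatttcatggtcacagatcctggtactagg
Mmp13: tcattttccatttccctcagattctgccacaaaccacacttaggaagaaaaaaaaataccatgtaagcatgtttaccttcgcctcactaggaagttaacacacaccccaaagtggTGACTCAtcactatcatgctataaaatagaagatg
Mmp3: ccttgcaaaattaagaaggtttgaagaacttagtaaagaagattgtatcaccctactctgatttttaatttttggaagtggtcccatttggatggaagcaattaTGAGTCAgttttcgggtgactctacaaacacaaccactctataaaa
The word begins 63, 44, 35 and 46 bases before the start in these 4 promoters. All 4 stretches shown hold it, but their levels differed: Mmp10 and Mmp12 were abundant in line 4, while Mmp3 held 6 reads and Mmp13 held 77 reads in all 15 libraries together. A match to these letters is a description of the sequence and not evidence of binding.

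Among the transcription factor genes of such promoters, Jun itself stood apart in line 4. It was at 5770, 5320 and 5320 CPM in the siCtrl, siLmod1 and siSirt1 libraries of that line and at 112 to 263 CPM in the other 12. Fosl1 was also highest in line 4 within each group, at 19.2, 27 and 40.3 CPM, though the other 12 libraries reached 25.4 CPM. In line 4, Fos was at 3.12 to 5.67 CPM and Junb at 26.8 to 39.1 CPM, inside the ranges of the other lines (2.97 to 24.5 and 19.8 to 77.8 CPM). Neighbours of the protease system that also stood over 2-fold above all other libraries were Adam8, a membrane-anchored metalloproteinase, at 408, 366 and 299 CPM against 1.67 to 4.44, Serpinb2, plasminogen activator inhibitor 2, at 266, 309 and 150 CPM against 0 to 0.179, and Thbs2, a matricellular thrombospondin, at 307, 254 and 179 CPM against 1.44 to 32.2. Of the cell type markers, Tek of the endothelial list stood at 96.2, 89.1 and 44.5 CPM in line 4 against 0.192 to 1.04. Vwf of the same list went the other way, at 0.956, 1.32 and 0.63 CPM against 4.675 to 14.7. Csf1r of the macrophage and neutrophil list stood at 4.88, 5.9 and 2.04 CPM against 0.129 to 0.345. Itgam of that list was lower in line 4, at 0.231, 0.694 and 0.259 CPM against 0.857 to 6.335. Myf5 of the myogenic list stood at 288, 219 and 185 CPM against 2.1 to 56.9. The rest of the myogenic list was split: within each group, Myog, Mymk and Myh3 were lowest in line 4, while Des and Itga7 were highest. Itga7 stood at 3739, 2719 and 2388 CPM in line 4 against 339 to 1375. The part of any of these in the levels of Mmp10 and Mmp12 was not tested.

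**Figure D3:**
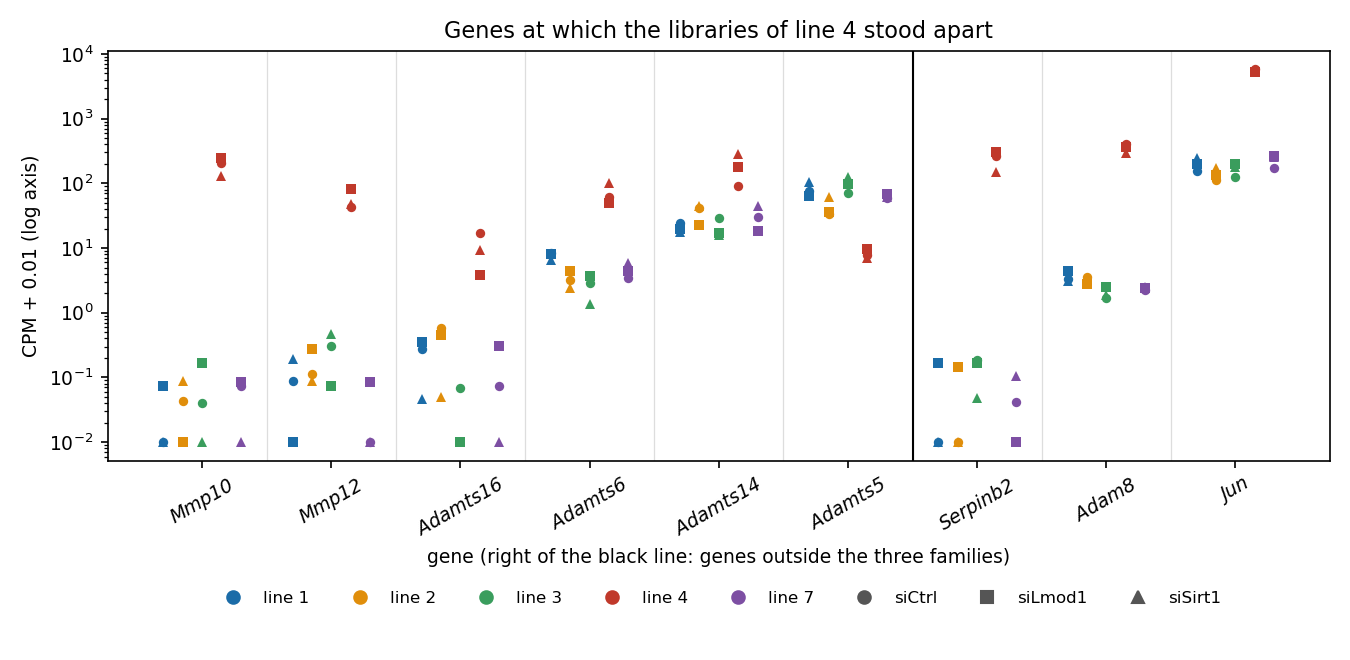
CPM plus 0.01 on a log axis in each of the 15 libraries, spread sideways by line, for 6 genes of the 3 families and, right of the black line, for Serpinb2, Adam8 and Jun. Line 4 is the highest of the 5 lines for each gene shown except Adamts5, for which it is the lowest at 7.04 to 9.68 CPM.

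The ADAMTS genes of line 4 differed by smaller factors. Adamts6 stood at 39.1, 31.1 and 66.5 TPM in line 4 and at 0.909 to 5.3 TPM elsewhere, and Adamts16 at 7.49, 1.71 and 4.3 TPM against 0 to 0.265 TPM. Adamts14 stood at 53.6, 104 and 171 TPM against 9.92 to 27.9 TPM. Adamts5, the main aggrecan-cleaving enzyme of cartilage, went the other way, at 2.9, 3.67 and 2.74 TPM in line 4 and 13.1 to 49.9 TPM elsewhere. Timp1 missed the criterion through 1 library: it stood at 549.9, 394 and 428 TPM in line 4 and at 34.8 to 95.1 TPM elsewhere, apart from 213 TPM in the siSirt1 library of line 7.

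Knockdown of Lmod1 was set against the control RNA first. Levels of 13 of the 25 members tested were lower in siLmod1, and 2 were higher, once the primary line entered the model as a block. Those lower included inhibitors (Timp1, Timp2, Timp3), the gelatinase Mmp2 and its activator Mmp14, the proteoglycan cleavers Adamts4 and Adamts20, and the procollagen N-proteinase Adamts2. In edgeR's quasi-likelihood test of the groups alone, 0 of 25 members passed a Benjamini-Hochberg adjusted p of 0.05, and 5 had an unadjusted p under 0.05. That test called 17 of 15022 genes, or 0.113%, and 8.99% had an unadjusted p under 0.05. With the line as a block it called 29.5% of all genes, 12.9% as higher and 16.5% as lower. The members' share was 60%, with 52% lower and 8% higher. Each value below marked blocked comes from that fit, and each of those adjusted p-values is over all genes.

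The members' median log2 fold change was -0.50 without the block and -0.46 with it, against -0.013 and -0.0097 over all genes. Before blocking, 20 of 25 members lay below 0, as did 52.2% of all genes. In 5 of 5 lines, 9 of 25 members were lower in siLmod1, against 14.5% of all genes, and 1 member was higher in 5 of 5, against 23.0%.

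Adamts7 showed the clearest difference. Against the siCtrl levels of 30.8 to 44.7 TPM given above, the siLmod1 libraries of lines 1, 2, 3, 4 and 7 stood at 23.3, 24.2, 19.9, 18.9 and 26.5 TPM. All 5 siLmod1 libraries lay below all 5 siCtrl libraries, which in CPM was so for 1 of 25 members and for 2.64% of all genes. The log2 fold change was -0.81 (SE 0.13, adjusted p = 0.060 in edgeR) without the block and -0.81 (SE 0.05, adjusted p = 7e-06) with it. DESeq2 without a block gave an adjusted p of 3e-05. The gene lies on chromosome 9 (mm10, 90163069 to 90208071) and shares 122 exon bases with Tbc1d2b on the other strand, and the library kit keeps no strand.

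Of the inhibitors, Timp2 fell from the siCtrl levels given above to 480.0, 561, 461, 689.7 and 472 TPM in siLmod1 lines 1, 2, 3, 4 and 7. It was lower in 5 of 5 lines, although the groups overlapped through line 4, with a blocked log2 fold change of -0.45 (SE 0.06, adjusted p = 0.00035 in edgeR). Timp3, whose protein stays bound to the matrix, went from 0.686, 0.838, 8.79, 0.0494 and 1.62 TPM to 0.505, 0.42, 2.9, 0.0131 and 1.26 TPM. Line 3 held most of its reads in both groups, and each line was lower in siLmod1, with a blocked log2 fold change of -0.96 (SE 0.22, adjusted p = 0.0082). Without line 3 the call was lost, at an adjusted p of 0.076. Timp1, an inhibitor that is induced in many damaged tissues, went from 95.1, 43.4, 94, 549.9 and 74.7 TPM to 65.1, 52.8, 62.2, 394 and 65.7 TPM, lower in 4 of 5 lines (blocked log2 fold change -0.37, SE 0.11, adjusted p = 0.025). That call was lost without line 1, 3 or 4, and adjusted p rose to at most 0.11.

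Timp4 moved the opposite way at a far lower level. It stood at 0.323, 0.181, 0.0167, 0.0683 and 0.0889 TPM in siCtrl and at 0.914, 0.181, 0.19, 0.487 and 0.181 TPM in siLmod1, with line 2 level between the groups. Its blocked log2 fold change was 1.48 (SE 0.42, adjusted p = 0.024), and it too lost the call without line 1, 3 or 4, with an adjusted p of at most 0.0945. The gene lies inside Syn2 on the other strand and shares 90 exon bases with it.

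Mmp2 and Mmp14, which act in sequence at the cell surface, were lower together. Mmp2 stood at 0.436, 0.508, 8.81, 0.663 and 1.96 TPM in siLmod1 lines 1, 2, 3, 4 and 7. Compared with the siCtrl values above it was lower in every line but line 4, with a blocked log2 fold change of -1.40 (SE 0.23, adjusted p = 0.0014). Mmp14 stood at 15.5, 32.1, 16.5, 10.7 and 56.5 TPM in siLmod1, lower in 5 of 5 lines, with a blocked log2 fold change of -0.72 (SE 0.11, adjusted p = 0.0011). The ranges of the 2 groups overlapped widely for both genes, and adjusted p without the block was 0.8 for Mmp2 and 0.81 for Mmp14. Of the other membrane-type genes, Mmp15 (blocked log2 fold change -0.06), Mmp16 (-0.53) and Mmp17 (-0.46) did not pass.

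Mmp11 fell by less, to 28.5, 29.8, 34.5, 30 and 28.5 TPM, lower in 5 of 5 lines (blocked log2 fold change -0.29, SE 0.07, adjusted p = 0.011). Without line 1 its adjusted p was 0.054. Mmp28, epilysin, was near 1 TPM or below throughout, at 0.553, 0.248, 1.52, 0.026 and 1.38 TPM in siCtrl and 0.152, 0.221, 0.63, 0.0275 and 0.824 TPM in siLmod1. Its blocked log2 fold change was -1.02 (SE 0.30, adjusted p = 0.027), and leaving out line 1 raised adjusted p to 0.098. Mmp19, a secreted metalloproteinase, rose in 5 of 5 lines, from 2.48, 1.78, 5.31, 4.9 and 0.953 TPM to 4.88, 2.2, 9.78, 13 and 1.35 TPM (blocked log2 fold change 0.84, SE 0.16, adjusted p = 0.0038). Mmp19 shares 789 exon bases with Tmem198b on the other strand (mean 21.8 CPM), so reads of these 2 genes cannot be told apart there.

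The 5 ADAMTS genes called lower besides Adamts7 covered a wide range of levels. Adamts4 fell to 22.6, 21, 15.3, 4.62 and 40.7 TPM in siLmod1, lower in 5 of 5 lines, with a blocked log2 fold change of -1.02 (SE 0.08, adjusted p = 3.9e-05). This was a drop of 50.6%, and it kept within -1.1 to -0.95 on the log2 scale whichever line was left out. Adamts2 fell from 1.83, 0.309, 1.81, 0.733 and 0.494 TPM to 0.451, 0.115, 0.697, 0.239 and 0.317 TPM, also in 5 of 5 lines (blocked log2 fold change -1.49, SE 0.22, adjusted p = 0.00082). Adamts20, a relative of Adamts9 known from skin pigmentation, fell from 1.93, 8.05, 1.35, 3.76 and 12.7 TPM to 0.599, 5.98, 1.12, 1.21 and 7.41 TPM (-0.95, SE 0.20, adjusted p = 0.0053). Adamts12 fell from 2.94, 3.42, 1.85, 1.94 and 2.52 TPM to 1.27, 2.42, 0.783, 1.59 and 1.23 TPM (-0.88, SE 0.16, adjusted p = 0.0027). Adamts10, whose product is tied to fibrillin microfibrils, fell from 6, 2.23, 3.7, 1.25 and 7.02 TPM to 3.9, 1.31, 1.31, 1.44 and 3.88 TPM (-0.77, SE 0.18, adjusted p = 0.011). In line 4 alone, Adamts10 was higher.

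Adamts14 changed in opposite directions between lines. It was lower in siLmod1 lines 1, 2, 3 and 7, at 11.6, 14.1, 10.4 and 11.2 TPM, and higher in line 4, at 104 TPM. The blocked log2 fold change was -0.38 (adjusted p = 0.23), and without line 4 it was -0.71 (adjusted p = 0.00037). Adamts1 (blocked log2 fold change 0.03), Adamts5 (0.11), Adamts6 (0.04) and Adamts9 (-0.19) did not pass in any direction in the blocked fit.

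**Figure D4:**
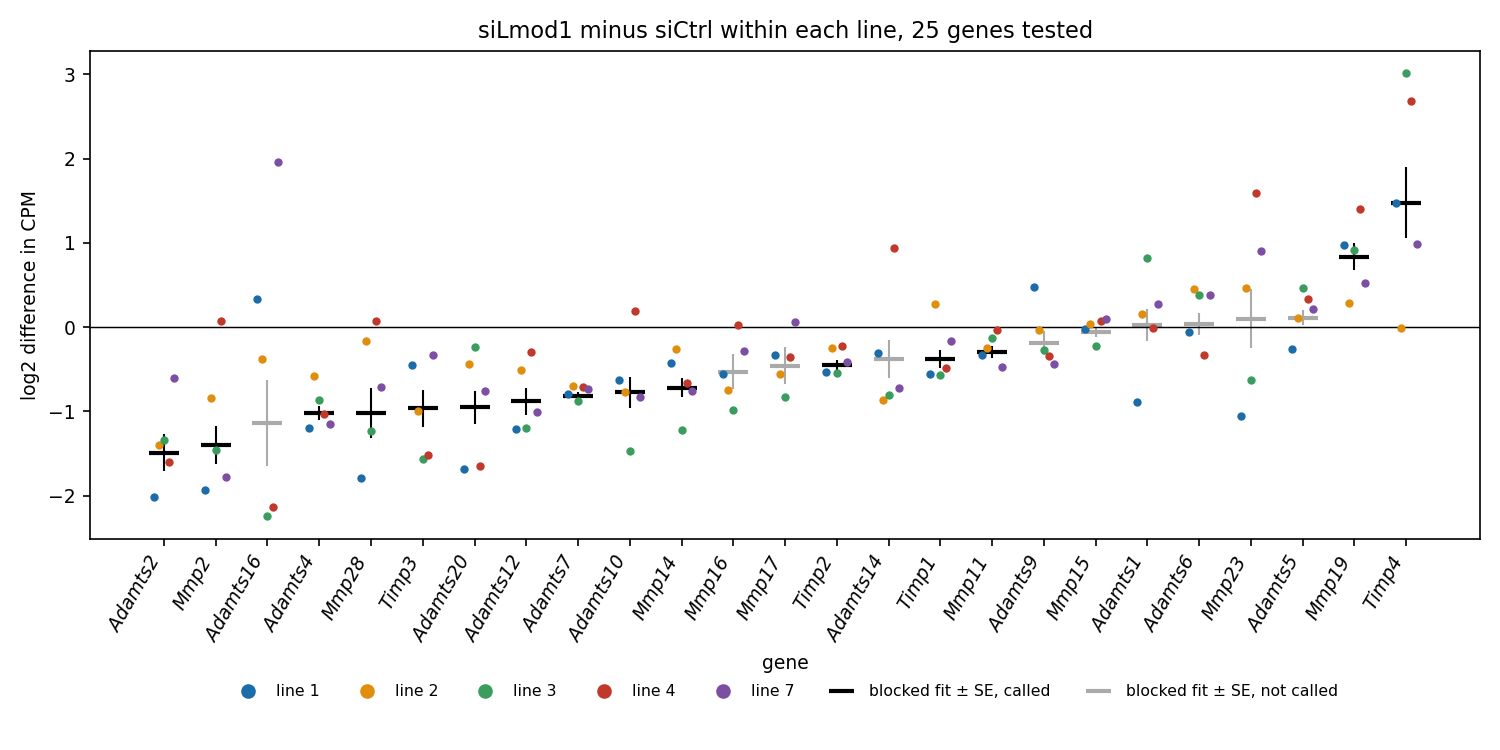
For the 25 genes tested, points are the log2 difference in CPM between siLmod1 and siCtrl within each line. Bars are the blocked edgeR estimate with its SE, black where the adjusted p was under 0.05. The estimates use TMM factors and the points do not, so the 2 can be offset. The 13 genes called lower run from Adamts2 at -1.49 to Mmp11 at -0.29, and Mmp19 and Timp4 at the right are the 2 called higher.

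Of the 15 blocked calls, 10 held whichever line was left out: Adamts2, Adamts4, Adamts7, Adamts10, Adamts12, Adamts20, Mmp2, Mmp14, Mmp19 and Timp2. Without line 1, 2, 3, 4 or 7, the members called were 11 of 27, 15 of 24, 11 of 25, 14 of 25 and 15 of 25. These are 40.7%, 62.5%, 44%, 56% and 60%, against 18.8%, 24.9%, 23.6%, 28.1% and 21.9% of all genes. DESeq2 with the same block kept 13 of the 15, and a blocked fit of all 15 libraries together kept 8.

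Genes of plasminogen activation and of the matrix were often lower in siLmod1 as well, read against the 16.5% of all genes called lower in the blocked fit. There, 7 of 8 tested genes of plasminogen activation were called lower and none higher. S100a10, a plasminogen receptor subunit, went from 117 ± 30.2 to 77.5 ± 15.9 CPM (SD, n = 5; blocked log2 fold change -0.63, adjusted p = 8.1e-05 in edgeR). Plaur, the urokinase receptor, went from 9.46 ± 6.49 to 4.75 ± 3.96 CPM (-1.09, adjusted p = 0.00063). Serpine2, a plasminogen activator inhibitor of the cell surface, was at -0.76 and Plau, urokinase, at -0.53. Of the matrix substrates, 17 of 21 tested were called lower and none higher, with a median of -0.73 on the log2 scale. The 4 with the smallest p were Col3a1 (-0.95), the proteoglycan Bgn (-1.02), the basement membrane linker Nid2 (-0.91) and the microfibril gene Fbn1 (-1.24), while Col1a1 had the lowest fold change (-2.48). Without the block, edgeR called 0 genes of either list, with an unadjusted p under 0.05 for 2 of 8 and 7 of 21. These lists were not tested in DESeq2.

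The ADAMTS-like proteins, which carry the same repeats without a protease domain, had 4 of 5 tested genes called lower. Adamtsl2 went from 66.6 ± 35.5 to 27.3 ± 24.2 CPM (SD, n = 5; blocked log2 fold change -1.57, adjusted p = 0.00041 in edgeR), with Adamtsl3 at -1.13, Adamtsl5 at -0.65 and Adamtsl4 at -0.54. Among activators, surface partners and other inhibitors, 8 of 16 were called lower and 1 higher. Cd44, the hyaluronan receptor that docks metalloproteinases, was at -0.87, the clearance receptor Lrp1 at -0.84, the syndecan Sdc1 at -0.85 and the procollagen C-proteinase enhancer Pcolce at -0.44. Membrane-anchored ADAM proteases had 2 of 9 lower (Adam23, Adam15) and 1 higher (Adam10, at 0.15). Cysteine cathepsins had 2 of 5 lower, Ctsz at -0.24 and Ctsh at -0.47. Of the transcription factors of protease promoters, 3 of 14 were higher and 2 lower, with the smallest p for Elk3 (-0.76) and Junb (0.32). Over all genes 16.5% were lower and 12.9% higher, and nothing is read from the counts of these last 3 short lists.

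Cell type markers went different ways by list in the blocked fit of siLmod1 against siCtrl. Over all genes, 16.5% were called lower there and 12.9% higher. The fibroblast and fibro-adipogenic list summed to 119.7 to 506 CPM in siCtrl and 88.6 to 300.1 CPM in siLmod1, with 2 of 7 tested genes called lower in the blocked fit, Col3a1 and Col1a1. Nearly all of that sum was Col3a1, at 355 ± 152 CPM in siCtrl and 184 ± 75.3 CPM in siLmod1 (SD, n = 5). Lum and Dpt were at 0 in all siLmod1 libraries. In siCtrl they were below the floor too, at no more than 0.0298 and 0.0659 CPM, so no difference is read. The pericyte and smooth muscle list summed to 83 to 275 CPM in siCtrl and 58.9 to 143 CPM in siLmod1, with 5 of 7 called lower, among them Abcc9 (-1.18), Rgs5 (-1.09) and Notch3 (-1.04). Of the 9 myogenic markers, 5 were called lower, among them Pax7 (-0.79) and Myog (-0.50). Of the smaller lists, 1 of 3 endothelial genes was called higher and 1 of 2 tendon genes lower, while 0 of 3 Schwann cell and 0 of 2 macrophage genes passed, with 0 of either at an unadjusted p under 0.05 without the block. The part of these cell types in the lower protease and inhibitor levels was not tested.

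In the comparison of siSirt1 with siCtrl, only Mmp15 passed in the blocked edgeR fit. Without the block, edgeR called 0 of 25 members and 0.127% of 14912 genes, and 2 members had an unadjusted p under 0.05, against 9.66% of all genes. With the block it called 1 member (4%) against 7.07% of all genes, of which 2.72% were higher and 4.35% lower, and 7 of 25 members had an unadjusted p under 0.05, against 25.2% of all genes. The groups overlapped in CPM for all 25 members, while they did not for 3.21% of all genes. The members' median log2 fold change was 0.05 without the block and -0.07 with it, against 0.019 and 0.0068 over all genes.

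Mmp15 stood at 46.2, 56.3, 60.6, 42.6 and 31.2 TPM in siSirt1 lines 1, 2, 3, 4 and 7. It was lower than siCtrl in 5 of 5 lines, as were 7.31% of all genes, and the groups overlapped. Its log2 fold change was -0.49 (SE 0.22, adjusted p = 0.52 in edgeR) without the block and -0.51 (SE 0.11, adjusted p = 0.033) with it. The call was lost without line 1, 3, 4 or 7, with an adjusted p of at most 0.092. The siSirt1 library of line 1 was the least like its own line, correlating at 0.255 with siCtrl line 1 and at 0.276 with siLmod1 line 1, and no member was called without line 1. Without line 4 the 1 member called was Adamts7, lower at an adjusted p of 0.036.

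Genes higher in siSirt1 in all 5 lines were Mmp16, Mmp19 and Timp4, which is 12% of the members against 20.3% of all genes. Mmp16, a membrane-type protease, stood at 0.398, 0.148, 1.17, 0.673 and 1.02 TPM in siCtrl and 0.697, 0.205, 1.33, 3.07 and 2.33 TPM in siSirt1 (blocked log2 fold change 0.87, SE 0.30, adjusted p = 0.12). Mmp19 stood at 4.27, 2.56, 6.28, 10.5 and 2.55 TPM in siSirt1 (0.66, SE 0.20, adjusted p = 0.09), and Timp4 at 0.523, 0.28, 0.234, 0.929 and 0.211 TPM (1.59, SE 0.56, adjusted p = 0.13). Adamts9, which cuts versican, stood at 0.498, 1.16, 1.09, 0.341 and 4.33 TPM in siCtrl and at 4.01, 1.93, 2.67, 1.55 and 4.32 TPM in siSirt1 (1.27, SE 0.40, adjusted p = 0.098). Lines 1 to 4 were higher and line 7 was level. These 4 genes missed the threshold in edgeR's blocked fit of the 10 libraries and passed it in other fits. DESeq2 with the block called Adamts9 (adjusted p = 0.0026) and Mmp19 (0.043) higher. It called Mmp15 (0.0016), Adamts7 (0.037) and Adamts16 (0.0044) lower. The blocked edgeR fit of all 15 libraries called Mmp16 (0.029), Adamts9 (0.021), Timp4 (0.043) and Mmp19 (0.044) higher. That fit called Mmp15 (0.0061) and Adamts7 (0.024) lower.

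Timp2, at 583, 550.3, 406, 921 and 771 TPM in siSirt1, was lower than siCtrl in lines 1, 2 and 3 and higher in lines 4 and 7; the blocked estimate was -0.30 (log2, adjusted p = 0.2). Timp1, at 39.6, 34.8, 62.3, 428 and 213 TPM, was lower in every line but line 7 (-0.36, adjusted p = 0.56). Mmp14 and Mmp2 had blocked log2 fold changes of -0.10 and -0.07. Mmp11 reached 69.1 and 69.8 TPM in lines 4 and 7 but 33.4 to 44.4 TPM in the other lines (0.32, adjusted p = 0.26).

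Of the wider protease system, few genes passed with siSirt1 in the blocked fit, in which 2.72% of all genes were higher and 4.35% lower. Adamtsl2 was 1 of 5 ADAMTS-like genes called lower, at 11.4 ± 8.27 CPM against 66.6 ± 35.5 CPM in siCtrl (SD, n = 5; blocked log2 fold change -2.70, adjusted p = 0.003 in edgeR). Nid2 (-0.52) and Hspg2 (-0.50), both of basement membranes, were the 2 of 21 matrix substrates called lower. Sdc4, a syndecan (0.68), and Nfkb1, an NF-kB subunit (0.40), were called higher. No gene of plasminogen activation (0 of 8), of the ADAM list (0 of 9) or of the cathepsins (0 of 6) was called, and without the block edgeR called 0 as well, with 0 genes of these 3 lists at an unadjusted p under 0.05. The fibroblast list summed to 109 to 797 CPM in siSirt1, and 1 of its 7 tested genes, Dcn, was called higher (1.85). Its level stayed at no more than 2.61 CPM. Of the pericyte list, 1 of 7 was called lower (Abcc9), and of the myogenic list 2 of 9 (Mymk and Itga7). Their part in these levels was not tested.

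A direct comparison of the 2 knockdowns tested where they differ. It shares the siLmod1 libraries with the first comparison and the siSirt1 libraries with the one before. Without the block, edgeR called 0 of 24 members and 1.53% of 14998 genes, and 4 members had an unadjusted p under 0.05, against 16.5% of all genes. With the block it called 11 of 24 members (45.8%) against 15.9% of all genes. Of these, 10 (41.7%) were higher in siSirt1, against 7.43% of all genes, and 1 (4.17%) was lower, against 8.43%. The members' median log2 fold change was 0.50 without the block and 0.43 with it, against 0.022 and 0.0054 over all genes. In 5 of 5 lines, 9 members were higher in siSirt1 (19.3% of all genes) and 1 was lower (11.6%).

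The largest differences among the called members were in Timp3, Adamts2, Adamts9 and Mmp16. Timp3 stood at 2.65, 0.762, 7.87, 0.429 and 4.65 TPM in siSirt1, above siLmod1 in 5 of 5 lines, with a blocked log2 fold change of 1.79 (SE 0.35, adjusted p = 0.015 in edgeR). Adamts2 stood at 1.75, 0.828, 2.06, 1.34 and 0.299 TPM, above siLmod1 in every line but line 7 (1.67, SE 0.41, adjusted p = 0.032). For Adamts9 the blocked log2 fold change was 1.43 (SE 0.33, adjusted p = 0.025), and for Mmp16 it was 1.41 (SE 0.24, adjusted p = 0.0087). Both were higher in siSirt1 in 5 of 5 lines. Mmp16 alone kept its call whichever line was left out, with log2 fold changes of 1.24 to 1.47.

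Mmp2, at 1.83, 0.526, 26, 0.83 and 8.47 TPM in siSirt1, was higher than in siLmod1 in 5 of 5 lines (blocked log2 fold change 1.23, SE 0.33, adjusted p = 0.041). Mmp14 (0.60), Mmp11 (0.59), Adamts4 (0.64) and Adamts10 (1.20) were also called higher, and Mmp15 was called lower (-0.47). Adamts7 was called higher, at 34.8, 31.1, 27, 38.3 and 32.7 TPM in siSirt1. All of these lay above all 5 siLmod1 libraries, with a blocked log2 fold change of 0.43 (SE 0.11, adjusted p = 0.036). Such a gap between the groups was seen in CPM for 1 of 24 members and for 5.48% of all genes. Without line 1, 2, 3, 4 or 7, the members called were 2 of 25, 8 of 24, 2 of 23, 3 of 25 and 6 of 23. These are 8%, 33.3%, 8.7%, 12% and 26.1%, against 6.94%, 11.8%, 6.32%, 9.22% and 11% of all genes, so that without line 1, 3 or 4 the members' share was near that of all genes. DESeq2 with the block and the blocked fit of all 15 libraries each kept all 11.

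**Figure D5:**
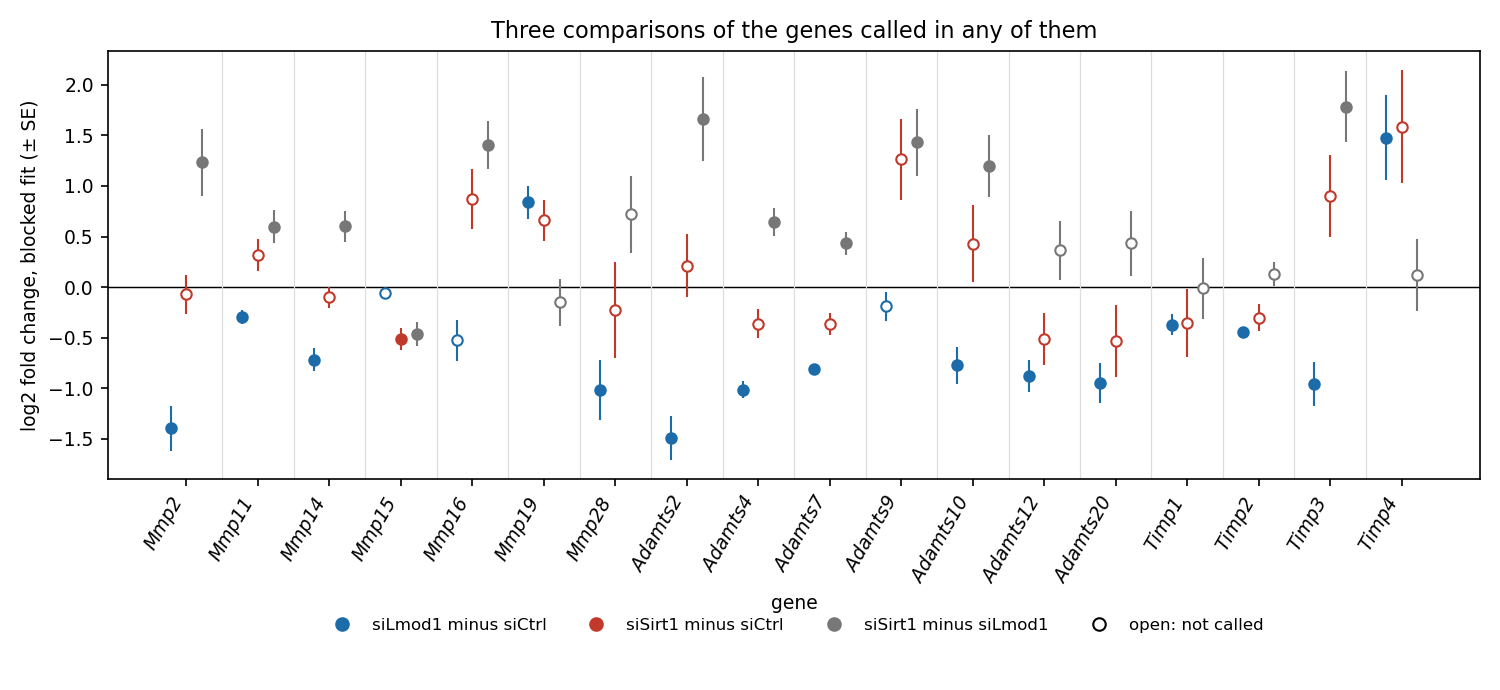
Log2 fold changes with their SE from the blocked edgeR fits, for the 18 genes called in at least 1 comparison; filled points were called. The siLmod1 minus siCtrl points lie below 0 for 16 of the 18 genes, all but Mmp19 and Timp4, and the siSirt1 minus siCtrl points are filled only for Mmp15.

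Of the other lists, plasminogen activation had 2 of 8 genes higher in siSirt1 than in siLmod1 in the blocked fit, where 7.43% of all genes were, Serpine2 (log2 fold change 1.29, adjusted p = 0.0092 in edgeR) and S100a10 (0.78, adjusted p = 0.031). The matrix substrates had 5 of 19 higher and none lower, among them Col3a1 (1.12) and Bgn (1.66). ADAMTS-like genes had 2 of 5 higher, Adamtsl3 (2.08) and Adamtsl4 (1.06). Activators and surface partners were split, with 2 of 16 higher (Cd44, Sdc1) and 2 lower (Furin, Spock2). Furin is the convertase that activates membrane-type metalloproteinases inside the cell. Notch3 of the pericyte list (1.31), Col3a1 of the fibroblast list and Pax7 of the myogenic list (1.12) were also higher in siSirt1. In each of these lists 1 gene was called higher, of 7, 7 and 9 tested. Called lower were 2 of 9 myogenic, 1 of 3 endothelial and 1 of 2 tendon genes, against 8.43% of all genes. The part of these cell types in the differences was not tested.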

How the data were processed

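RNA sequencing counts and TPM were analysed for 15 libraries, 5 in each of the siCtrl, siLmod1 and siSirt1 groups. The deposited raw counts per gene and the deposited TPM values came from polyA libraries of a kit that keeps no strand. Per the submitters' processing notes the genome was mm10 and DESeq2 was used, and no source used here names the aligner or the counter. The authors' normalized table was not used here. Gene symbols came from GENCODE M21 for 49056 of 49315 gene IDs; the 259 without a symbol held 0.00955% of counts.

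Pairwise fits of 10 libraries used edgeR 4.0.16 (R 4.3.3): filterByExpr, TMM factors, the quasi-likelihood test and a Benjamini-Hochberg adjusted p of 0.05 over all genes tested. The model held the group alone; a second fit added the primary line as a block. The lines pair the samples, since libraries of the same number came from the same primary line. Deviations from group means over 15716 genes correlated at 0.255 to 0.861 (median 0.682) in 15 pairs of the same line and at -0.493 to 0.268 (median -0.127) in 60 pairs of different lines. Each of the 15 libraries correlated best with its own line. Alternatives were DESeq2 1.42.0, other size factors, no filter on low counts, all 15 libraries in 1 fit and leaving out each library or line. Single values were tested by exact permutation in SciPy 1.17.1, and the fitting code was tested on simulated data.

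The members and gene lists were chosen with earlier results of these data known. Genes given library by library were those called in any comparison in either fit, the 10 with the highest mean TPM in siCtrl and the 4 Timp genes; of each pathway list, up to 4 with the smallest blocked p against siCtrl. In addition, Jun, Fos, Fosl1, Tek, Vwf, Itgam, Itga7, Col1a1, Adam8, Serpinb2 and Thbs2 were added after their values were seen. So were the genes named from the direct comparison of the knockdowns. The same holds for Mmp3, Mmp8, Mmp9, Mmp12, Mmp13, Mmp17, Adamts3, Adamts5, Adamts6 and Adamts16.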

Additional observations from a re-analysis of the deposited data

Results flagged for a closer look

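In each group of 5 libraries, the highest and lowest TPM of 21 genes were compared with the nearest other library by Dixon's ratio at its 95% critical value. This marked 16 of 63 groups, and the libraries of a line are not independent across groups. The nominal rate of 1 in 20 holds for normally spread values, while TPM was used here without a log. Some genes, such as Mmp10, were among the 21 for their mean siCtrl TPM, which 1 high library can raise. The count is therefore a description and is not set against chance. Of the 16, 8 were libraries of line 4. Adamts14 in line 4 stood at 53.62 TPM in siCtrl (others 14.35 to 25.58), 103.7 TPM in siLmod1 (10.45 to 14.08) and 171.1 TPM in siSirt1 (9.924 to 27.93). Mmp10 in line 4 stood at 363.0 TPM in siCtrl, 434.5 TPM in siLmod1 and 234.6 TPM in siSirt1, with no other library above 0.2952 TPM. Timp1 in line 4 stood at 549.9 TPM in siCtrl (others 43.37 to 95.11) and 394.5 TPM in siLmod1 (52.75 to 65.66).

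Line 7 was highest for 4 of the others. Adamts1 reached 102.8 TPM in siLmod1 (others 6.159 to 22.97) and Adamts9 reached 4.333 TPM in siCtrl (0.3408 to 1.156). Mmp14 reached 97.14 TPM in siCtrl (16.87 to 39.2) and 119.9 TPM in siSirt1 (22.23 to 31.59). Line 3 was highest for the remaining 4. Mmp2 stood at 24.68 TPM in siCtrl (others 0.6265 to 6.903) and 8.807 TPM in siLmod1 (0.4359 to 1.965), Mmp11 at 34.47 TPM in siLmod1 (28.46 to 30.03) and Timp3 at 8.788 TPM in siCtrl (0.0494 to 1.622).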

How the results depend on the processing

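The primary line as a block, which pairs the samples, moved the counts most. For siLmod1 against siCtrl, edgeR called 17 genes and 0 members by group alone and 4430 genes and 15 members with the replicate block. For siSirt1 against siCtrl these were 19 and 0, then 1054 and 1, and for siSirt1 against siLmod1 229 and 0, then 2379 and 11. DESeq2 by group alone called 261, 294 and 922 genes and 1, 0 and 1 members in the 3 comparisons in that order. With the block, DESeq2 called 3975, 1940 and 3171 genes and 13, 5 and 11 members. Without a filter on low counts the genes called were 6, 7 and 90. All 15 libraries in 1 fit gave 38, 150 and 554 genes and 1, 0 and 1 members, and with the block 1427, 2530 and 4210 genes and 8, 6 and 11 members. Leaving out 1 library left 3 to 10, 3 to 13 and 54 to 247 genes without the block, and leaving out 1 line with it left 2833 to 4264, 332 to 580 and 946 to 1771. Members then ranged from 11 to 15, 0 to 1 and 2 to 8 with the block, and 0 passed without it.

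Among the fold changes of named genes, 1071 alternative values kept their direction and side of the threshold, 171 passed it newly and 74 changed sign. The sign changed with the block in siLmod1 against siCtrl for Adamts14 (-0.378; DESeq2 -0.413; 15 libraries -0.43) and, with 15 libraries, for Adamts1 (-0.00619). It changed in siSirt1 against siCtrl for Mmp2 (-0.0724; DESeq2 -0.063; 15 libraries -0.0561) and in siSirt1 against siLmod1 for Timp1 (-0.0112; DESeq2 -0.0171). The cause was not tested.

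With 1 library or line left out, log2 fold changes in siLmod1 against siCtrl crossed 0 for Adamts1 (-1.04 to 1.03), Adamts9 (-1.05 to 0.654), Adamts14 (-1.24 to 0.648), Mmp15 (-0.157 to 0.0401), Timp1 (-1.6 to 0.761) and Timp3 (-2.07 to 0.248). In siSirt1 against siCtrl they did so for Adamts1 (-1.22 to 0.306), Adamts2 (-0.0803 to 0.466), Adamts4 (-0.705 to 0.05), Adamts10 (-0.066 to 0.872), Adamts14 (-0.631 to 1.25), Mmp2 (-1.35 to 1.42), Mmp14 (-0.787 to 0.508), Mmp28 (-0.819 to 0.0525), Timp1 (-1.2 to 0.917) and Timp3 (-0.266 to 1.86). In siSirt1 against siLmod1 they did so for Adamts1 (-1.32 to 0.41), Adamts14 (-0.791 to 1.98), Adamts20 (-0.301 to 0.695), Mmp14 (-0.0652 to 1.15), Mmp19 (-0.782 to 0.135), Timp1 (-0.71 to 1.24) and Timp4 (-0.435 to 0.616). These ranges pool single libraries left out without the block and single lines left out with it. In the blocked fits alone, only Adamts1 crossed 0 in siLmod1 against siCtrl (-0.171 to 0.278). Timp1 stayed at -0.484 to -0.298 and Timp3 at -1.19 to -0.659 there. In siSirt1 against siCtrl, the blocked values crossed 0 for Adamts2, Adamts14, Mmp2 and Mmp28. In siSirt1 against siLmod1, those of Timp1 and Timp4 did. Filtering low values on the other 4 lines alone, chosen after the data were seen, left 2 of the 5 members above in line 4, since the other 3 had passed through that line. The number of expressed genes was 17 at a median of 1 TPM, 22 at 0.5 TPM, 14 at 2 TPM and 21 at 1 CPM. Depth limits the genes near 3 counts, among them Timp4 and Mmp28.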
